A study of Arabidopsis thaliana with 36 samples.

Results

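The comparison set the F1 hybrid Fcs, which had Col-0 as its mother and Sei-0 as its father, against its mother Col-0 at 3 days post infiltration (dpi) with the bacterium Pst DC3000. The members were all genes with an FPKM of at least 1 in Col-0 or in Fcs, which were 18138 of the 33557 genes listed. FPKM, a count of fragments scaled to transcript length and to the mapped fragments of a library, gives a level per length and per depth. Each gene was described by the ratio of its FPKM in Fcs to that in Col-0.

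The mRNA-seq series held leaves of Arabidopsis thaliana, namely the accession Col-0, the accession Sei-0 and the reciprocal hybrids Fcs and Fsc, the latter with Sei-0 as mother, at 1, 2 and 3 dpi. All plants were 4 weeks old and grown with 8 h of light, and all leaves were infiltrated with Pst DC3000 at 100000 cfu per ml, so that no mock-treated leaves entered the comparison. Each of the 12 groups had 3 libraries, each made from about 30 leaves of different plants. The tables gave 1 value per group pooled over its libraries, so no spread between replicates could be computed from them and no test was made, and "higher" or "lower" below is a difference between pooled values without error.

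Pst DC3000 is a bacterial pathogen that lives on living leaf tissue. Arabidopsis restricts it mainly through salicylic acid (SA), which is made from chorismate by a route that starts with ICS1 and which signals through NPR1. The bacteria counter this by making coronatine, a mimic of jasmonate (JA). Col-0 is the accession whose genome is the reference. An F1 plant carries a genome copy from each parent, so a transcript made from the copy of only 1 parent is diluted by the silent or missing copy of the other.

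At 3 dpi, 1694 of the 18138 genes were at least 2-fold higher in Fcs than in Col-0, 9.34% of those measured, and 1982 were at least 2-fold lower, 10.9% of those measured. The remaining 14462 genes, 79.7%, lay within 2-fold. The list counts below are to be read beside these shares. The median log2 ratio of Fcs to Col-0 over all measured genes was -0.025, with the middle 50% of genes between -0.43 and 0.39. At 10-fold there were 207 genes higher and 172 lower. A share of genes lay near the limit, with 156 genes at a ratio from 2 to 2.1 and 173 from 1.9 to 2, and with 200 and 222 genes in the matching bands on the lower side. The percentage past 2-fold was largest at low levels. Among genes with a mean FPKM below 2 over both groups, 23.9% were higher and 21.4% lower, against 6% and 8.13% at a mean FPKM of 10 to 50, and 7.12% and 11.6% at a mean FPKM of 250 or more. The 5 chromosomes differed little, with 8.95% to 9.89% of their measured genes higher and 10.2% to 12.3% lower.

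**Figure D1:**
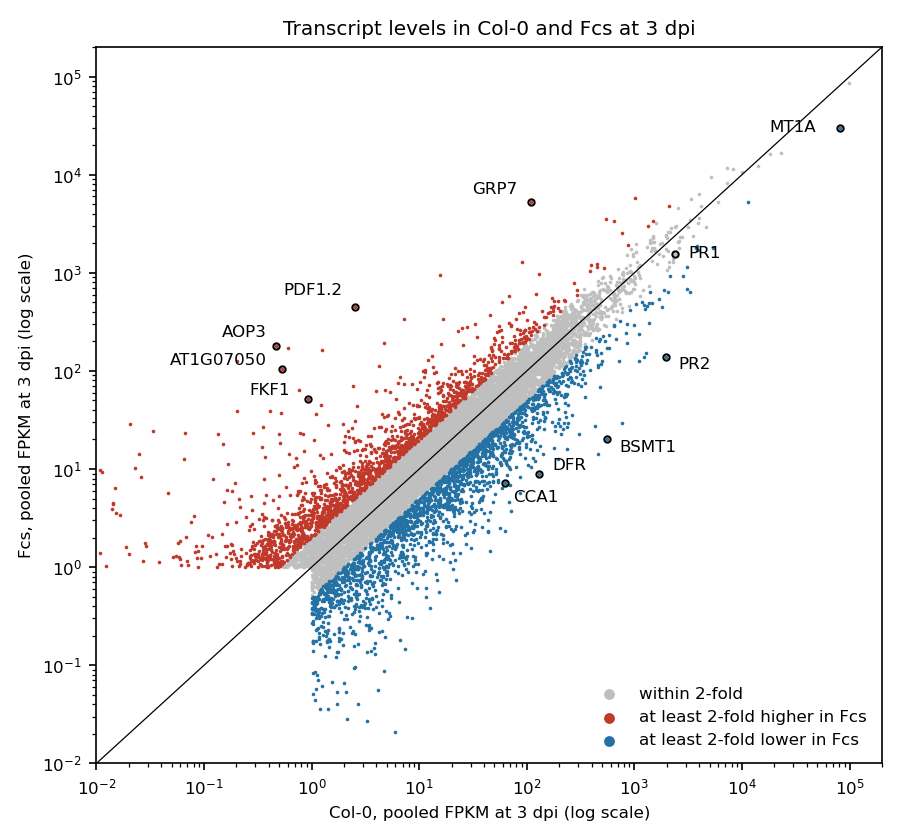
Pooled FPKM of each measured gene in Col-0 (horizontal, log scale) and Fcs (vertical, log scale) at 3 dpi, for genes above 0 in both groups, with the line of equal levels. Genes at least 2-fold higher in Fcs are red and those at least 2-fold lower are blue. GRP7, PDF1.2 and FKF1 stood far above the line, PR2, BSMT1 and DFR far below it, and PR1 close to it.

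Evening-phased and morning-phased genes of the circadian clock ran mostly in opposite directions. The clock of Arabidopsis is a loop in which the morning transcription factors CCA1 and LHY repress evening genes such as TOC1, GI and LUX. Of these, TOC1 in turn represses CCA1 and LHY. All 10 measured evening-phased genes were at least 2-fold higher in Fcs, with BOA below the minimum level, and with a median log2 ratio of 3.27 and a range from 1.4 to 5.80. Of the 11 morning-phased genes, 8 were lower, 1 was higher and 2 lay within 2-fold, with a median of -1.89. FKF1, a blue-light receptor of the evening, had an FPKM of 0.93 in Col-0 and 51.6 in Fcs, so that it reached the minimum level only in Fcs. GRP7, an RNA-binding protein that the clock regulates, had 109 and 5206 in the same order. LUX, a repressor in the evening complex, had an FPKM of 2.17 in Col-0 and 24.5 in Fcs, TOC1 had 11.1 and 47.5, and GI, which had the smallest ratio of the list, 28.8 and 76.1. The morning genes ran the other way, with CCA1 at 62.3 in Col-0 and 7.16 in Fcs, LHY at 27.9 and 2.25, and RVE1, a relative of both, at 10.9 and 0.85. PRR7, a repressor of CCA1 and LHY, was at 108 and 150, and RVE2 was the member that was higher, at 1.27 and 3.24.

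The same clock genes in the other groups at 3 dpi are given beside these, with Col-0 shared by all comparisons. Sei-0 had an FPKM of 22.0 for CCA1, 6.64 for LHY, 22.0 for TOC1 and 15.6 for FKF1, each between Col-0 and Fcs. Fsc had 1.1 for CCA1, 0.76 for LHY, 110 for TOC1 and 87.8 for FKF1, each farther from Col-0 than Fcs was. The median log2 ratio to Col-0 of the evening-phased list was 1.84 in Sei-0 and 5.33 in Fsc, and that of the morning-phased list was -0.76 and -3.15. The hour of the day at which the leaves of each group were taken is not given in the sources used here, so the part of sampling time in these and the following differences was not tested.

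CCA1 binds the evening element, AAAATATCT, and 6 of the 10 evening-phased genes held at least 1 match to it, on either strand, in the 250 bases upstream of the annotated gene start, against 2.67% of the 17464 measured protein-coding genes. The stretches that carry it are shown for these 6 genes and for COR27, a cold-induced gene. COR27 was the only 1 of the 10 genes of the cold-response list with a match. The element is in capitals and reads as its reverse complement where it starts with AG. The letters are those of the Col-0 reference, RefSeq build TAIR10.1, on the strand of the gene.
FKF1, chr1:25508428-25508486, + strand: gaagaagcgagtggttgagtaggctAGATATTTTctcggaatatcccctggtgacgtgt
PRR5, chr5:8358700-8358758, - strand: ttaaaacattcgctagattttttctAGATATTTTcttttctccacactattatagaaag
LUX, chr3:17182964-17183022, + strand: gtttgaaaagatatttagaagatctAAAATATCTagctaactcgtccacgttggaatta
TOC1, chr5:24674787-24674845, + strand: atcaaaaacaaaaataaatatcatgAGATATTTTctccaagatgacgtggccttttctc
GRP7, chr2:9266600-9266658, - strand: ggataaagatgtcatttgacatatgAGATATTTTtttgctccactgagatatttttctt
GRP8, chr4:18275217-18275253, - strand: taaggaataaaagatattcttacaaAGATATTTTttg
COR27, chr5:17199916-17199974, - strand: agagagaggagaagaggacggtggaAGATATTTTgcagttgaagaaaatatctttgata
GRP7 held 3 matches and COR27 held 2, with the first of each in capitals. PRR5, a repressor of the clock's morning genes, had an FPKM of 11.3 in Col-0 and 102 in Fcs, and GRP8, a relative of GRP7, had 640.1 and 3382. A match is a description of the letters and no evidence that CCA1 was bound there.

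**Figure D2:**
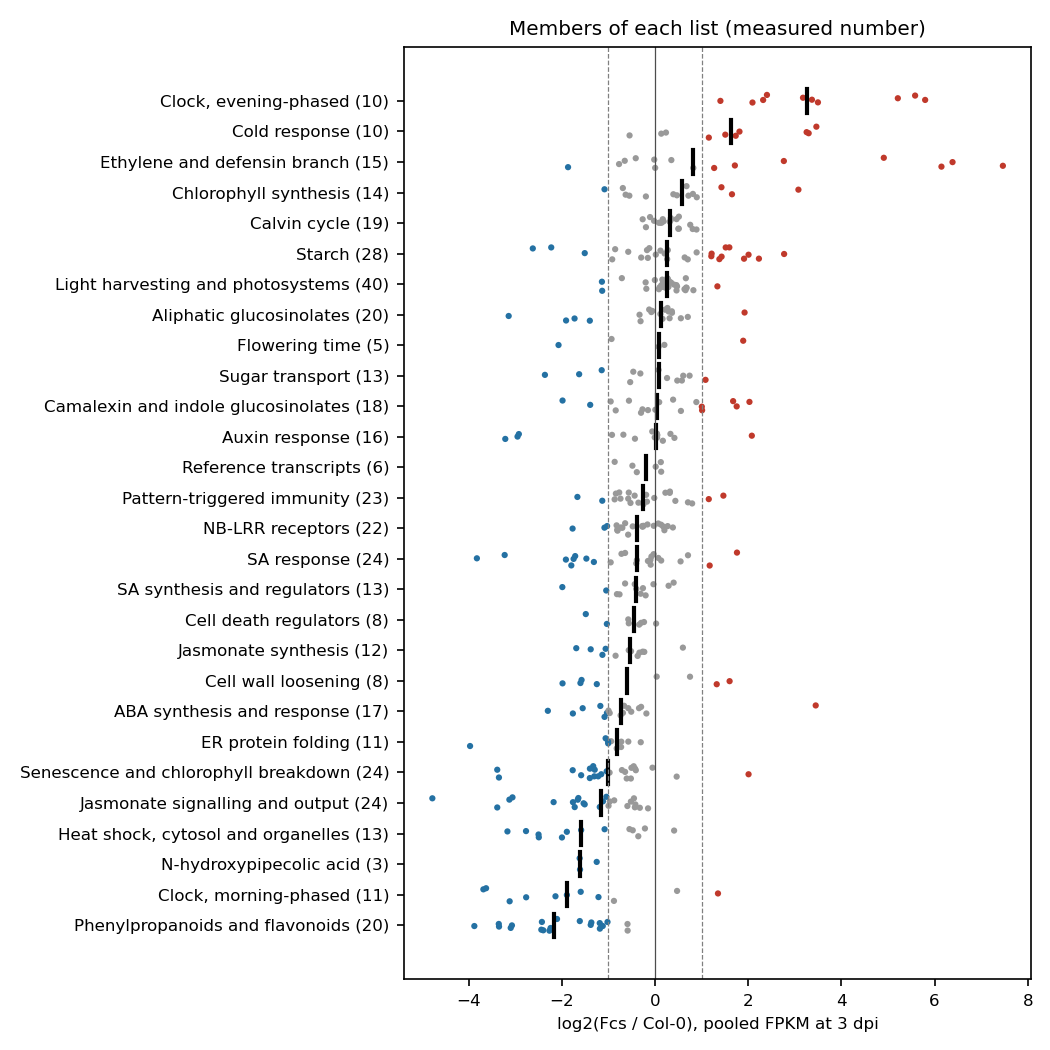
Log2 of the ratio of Fcs to Col-0 at 3 dpi (horizontal) for each measured member of the lists with at least 3 measured members (points), with the list median as a black bar and the 2-fold limits dashed. Red points were at least 2-fold higher and blue points at least 2-fold lower in Fcs. The evening-phased clock genes lay wholly to the right, and the phenylpropanoid and flavonoid genes wholly to the left of 0.

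Higher genes were found in the starch, chlorophyll and cold lists. Among 28 measured starch genes 10 were higher and 3 lower. PWD, which phosphorylates starch on the way to its degradation, had the largest ratio, with an FPKM of 14.3 in Col-0 and 97.4 in Fcs, followed by DPE1, which joins short glucans, at 9.47 and 44.4. At the other end stood BAM9, of the beta-amylase family, at 14.7 and 2.38, and GBSS1, which makes amylose, at 101 and 21.5. Chlorophyll synthesis had 3 of 14 genes higher and 1 lower, with PORB, a protochlorophyllide reductase, at 68.9 in Col-0 and 581 in Fcs, and HEMA1, at the entry to the pathway, at 255 and 120.1. Of the 10 cold-response genes 7 were higher and none was at least 2-fold lower. COR15B, a chloroplast protein that protects membranes in the cold, had 25.1 in Col-0 and 277 in Fcs. CBF1, an activator of such genes, had 0.28 and 2.73, so that it reached the minimum level only in Fcs. The smallest ratios were those of KIN1, at 6.51 and 4.45, and COR47, at 221 and 243. The median log2 ratio of the cold list was 1.62, with 9 genes above Col-0 and 1 below.

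At 3 dpi, 11 of the 13 measured genes on the list for SA synthesis and its control differed from Col-0 by less than 2-fold. The study itself had singled out ICS1, PAD4, EDS1, CBP60g and SARD1 among these, so their choice was not independent. Like the other lists, this list was drawn up with earlier results of these data known. None of the 13 was at least 2-fold higher, 2 were lower, and the median log2 ratio was -0.40. ICS1 had an FPKM of 53.3 in Col-0 and 34.1 in Fcs, PAD4, a regulator of SA synthesis, 73.4 and 55.5, its partner EDS1 31.1 and 17.63, and CBP60g, an activator of ICS1, 63.2 and 46.7. SARD1, the other activator of ICS1, was the member with the largest ratio, at 56.1 and 73.9. The genes that were lower were EPS1, at 11.7 and 2.94, and PBS3, which conjugates isochorismate to glutamate on the way to SA, at 73.4 and 35.5. On the earlier days the same list had a median of 1.60 at 1 dpi and 0.44 at 2 dpi.

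N-hydroxypipecolic acid is the mobile signal of systemic resistance. Its 3 genes were all lower in Fcs, with ALD1 at 31.9 in Col-0 and 10.4 in Fcs, FMO1 at 52.5 and 22.0, and UGT76B1, which inactivates the signal, at 15.5 and 5.05. Their median log2 ratio was -1.61 at 3 dpi, against 4.53 at 1 dpi and 1.21 at 2 dpi.

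Among 24 genes of the SA response, 8 were lower and 2 higher, with a median of -0.40. PR2, a secreted glucanase, had 1974 in Col-0 and 139 in Fcs, a level 14.2 times lower, and DLO1, an SA hydroxylase, had 103 and 11.03. PR1, the usual marker of SA signalling, had 2409 and 1542 and so lay within 2-fold, beside 693 in Sei-0 and 1742 in Fsc. PR2 had 294 in Sei-0 and 213 in Fsc. AZI1, a lipid transfer protein of systemic priming, was higher, at 47.9 in Col-0 and 162 in Fcs.

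Genes of JA signalling and output lay below Col-0 in Fcs. None of the 24 measured genes of JA signalling and output was at least 2-fold higher, 14 were lower, and all 24 had a ratio below 1, with a median log2 ratio of -1.15. BSMT1, which methylates SA and benzoic acid, stood at the bottom with 554 in Col-0 and 20.2 in Fcs, followed by JMT, which methylates JA, with 110 and 10.5. VSP2, a storage protein and classical JA marker, had 1215 and 139. The receptor gene COI1 and JAZ1, a repressor, had the ratios nearest to 1, at 23.2 and 20.9 and at 244 and 194. Of 12 measured genes of JA synthesis 4 were lower, among them LOX3, at 56.9 and 21.8, and ACX1, an oxidase of the last steps, at 198 and 61.3. AOC2, a cyclase, was the member that lay above Col-0, at 973 and 1472.

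Part of the defensin branch, which depends on ethylene together with JA, ran against the rest of the JA output. The branch had 7 of 15 measured genes higher and 1 lower, with a median of 0.82. Among the higher genes PDF1.2b, PDF1.2c and ORA59 were under an FPKM of 1 in Col-0. They were thus counted only through their level in Fcs. In all, 10 genes were above Col-0 and 5 below, among the latter HCHIB and ERF1 at log2 ratios of -0.65 and -0.02. PDF1.2, an antifungal defensin, stood at 2.5 in Col-0, 443 in Fcs, 612 in Fsc and 168 in Sei-0. PDF1.2c had 0.76, 63.4, 160.4 and 3.90 in the same order, and ORA59, the transcription factor upstream of PDF1.2, had 0.77, 23.3, 17.8 and 3.69. These defensin genes are close copies of each other, and how reads shared between them were divided is not known, so their single levels are uncertain. The member that was lower was ACS2, an enzyme of ethylene synthesis, at 7.84 in Col-0 and 2.15 in Fcs, and PR4 was at 446 and 261.

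Genes of pattern-triggered immunity, the response to conserved bacterial molecules, were mostly within 2-fold, with 2 of 23 higher and 2 lower and a median of -0.25. Over all measured genes 79.7% lay within 2-fold, 9.34% were higher and 10.9% lower, so these counts did not stand out. WRKY22 was at 3.43 in Col-0 and 9.47 in Fcs. The flagellin-induced receptor kinase gene FRK1 was at 17.8 and 39.5. The precursors of danger peptides PROPEP2 and PROPEP3 were at 1.86 and 0.59 and at 4.6 and 2.1. Among 22 immune receptors of the NB-LRR class none was at least 2-fold higher and 3 were lower. ADR1, a helper receptor, had 18.9 in Col-0 and 5.53 in Fcs, and RPP1 had 49.8 and 23.5, both beside lower values of 3.36 and 14.0 in Sei-0. RPS4 and RRS1, a receptor pair, had the largest ratios of the list at 11.3 and 14.7 and at 6.98 and 8.42. Receptor genes of this class form clusters of related copies that differ between accessions, and reads were aligned to the Col-0 genome.

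Camalexin and indole glucosinolates, sulfur-containing defence compounds made from tryptophan, gave 5 of 18 genes higher and 2 lower. CYP81F2, which modifies indole glucosinolates, was at 1.23 in Col-0 and 5.0 in Fcs, and its activator MYB122 at 1.05 and 3.53. CYP71A13, on the way to camalexin, was at 42.7 and 10.8, and MYB34 at 18.8 and 7.15.

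Phenylpropanoid and flavonoid genes were mostly lower. Of 20 measured genes 18 were at least 2-fold lower in Fcs and none was higher, with a median log2 ratio of -2.17. DFR, which reduces dihydroflavonols on the way to anthocyanin, stood at an FPKM of 131 in Col-0, 8.90 in Fcs, 5.73 in Fsc and 29.7 in Sei-0. LDOX, the next enzyme, had 85.6, 8.36, 4.73 and 31.2, and CHS, the entry enzyme of flavonoid synthesis, had 242, 44.6, 15.8 and 162 in the same order. C4H and 4CL1, at the start of the pathway that lignin shares, lay within 2-fold, at 165 and 110 and at 97.2 and 64.6. The list was lower on the earlier days too, with a median of -3.04 at 1 dpi and -2.18 at 2 dpi.

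The G-box, CACGTG, is a site for basic leucine zipper and MYC factors. It was present upstream of 5 of these 20 genes and of 5 of the 24 genes of JA signalling and output, against 7.60% of all promoters examined. It was also present upstream of 8 of 28 starch genes and 8 of 40 genes of light harvesting and the photosystems, lists that were not lower as a whole. The stretches are shown for a pair of genes of each list, with the G-box in capitals, as above.
CHS, chr5:4488226-4488273, + strand: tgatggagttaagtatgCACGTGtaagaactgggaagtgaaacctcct
DFR, chr5:17166033-17166071, - strand: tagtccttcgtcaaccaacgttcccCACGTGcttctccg
JAZ7, chr2:14572971-14573026, + strand: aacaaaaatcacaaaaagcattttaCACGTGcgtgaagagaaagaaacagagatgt
JAZ8, chr1:10596317-10596351, + strand: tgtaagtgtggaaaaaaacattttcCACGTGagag
JAZ7 and JAZ8, repressors that are themselves JA-induced, had an FPKM of 47.9 and 68.8 in Col-0 and of 14.1 and 24.1 in Fcs.

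Photosynthesis genes differed little at 3 dpi. Of 40 genes of light harvesting and the photosystems 37 lay within 2-fold, 1 was higher and 2 were lower, and 34 had a ratio above 1, with a median log2 ratio of 0.25. All 19 Calvin cycle genes lay within 2-fold, with a median of 0.31, and RBCS1A, the main small subunit of Rubisco, had 8307 in Col-0 and 11436 in Fcs. LHCB1.4 was at 452 and 1141, LHCB2.1 at 1388 and 632, and LHCB2.3 at 134 and 60.8. These chlorophyll-binding proteins include close copies, whose levels depend on how shared reads were divided. At 1 dpi the medians of the same lists were -1.56 and -2.02, with 38 of 40 and 14 of 19 genes lower.

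Senescence and chlorophyll breakdown had 12 of 24 genes lower and 1 higher, with a median of -1.01. SAG12, a protease of senescing leaves, was measured at 24.1 in Col-0, 9.58 in Fcs, 0.76 in Fsc and 37.2 in Sei-0. SAG13 had 1236, 469, 137 and 1574. HAI1, a phosphatase of ABA signalling, and SWEET15, a sugar exporter, had the smallest ratios, at 48.5 in Col-0 and 4.64 in Fcs and at 70.4 and 6.89. DIN10, a gene induced in the dark, was the member that was higher, at 14.8 and 59.6. BAP2 and BAP1, which restrain cell death, were at 9.91 and 3.54 and at 43.7 and 21.3, and the other 6 measured genes of the cell death list lay within 2-fold. Sugar transport had 3 of 13 genes lower and 1 higher, with SWEET11, a sucrose exporter of the phloem, at 92.2 and 195 and SWEET4 at 2.77 and 0.54.

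Protein folding was covered by a heat shock list and a list of the endoplasmic reticulum. Of 13 measured heat shock genes 8 were lower and none was at least 2-fold higher, with a median of -1.59. The small heat shock proteins HSP17.6II and HSP17.6A were at 9.80 in Col-0 and 1.09 in Fcs and at 17.7 and 2.59, while HSP90.4, a close copy of other HSP90 genes whose shared reads are hard to divide, and ROF1 were at 10.6 and 14.1 and at 56.2 and 48.3. All 11 genes of folding in the endoplasmic reticulum had a ratio below 1, of which 4 passed 2-fold, with BIP3, an inducible chaperone, at 27.1 and 1.72 and CRT1a, a calreticulin, at 230 and 186.

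ABA synthesis and response had 6 of 17 measured genes lower and 1 higher, and 16 of the 17 had a ratio below 1, with a median of -0.74. The lower ones included HAB1, a phosphatase that dampens ABA signalling, at 41.8 in Col-0 and 8.47 in Fcs, and the higher one was RD29A, a dehydration and cold marker, at 13.0 and 142. Auxin response had 3 of 16 genes lower, among them DFL1 at 58.8 and 6.33 and GH3.5 at 133 and 17.2, enzymes that conjugate auxin to amino acids, and IAA29 was higher at 0.77 and 3.26. The cell wall loosening list had 4 of 8 genes lower and 2 higher, with the expansin EXPA11 at 3.58 and 10.8. Its lower genes included CSLA9, at 12.9 and 3.26, which belongs to a family of wall polysaccharide synthases and is not a loosening enzyme. Flowering time genes included MAF5, a repressor of flowering, at 22.6 and 5.37, and CO, a promoter of flowering under clock control, at 0.29 and 1.09.

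Reference transcripts and tissue markers are given for comparison. The 6 reference transcripts all lay within 2-fold, with ACT2 at 374 in Col-0 and 377 in Fcs, PP2AA3 at 28.5 and 31.0, and UBQ10 farthest from 1 at 2082 and 1141. All 4 mesophyll markers were present at high levels and lay within 2-fold, with a summed FPKM of 19852 in Col-0 and 26706 in Fcs. Of the 4 guard cell markers KAT1, a potassium channel, was lower at 37.97 and 16.9, and the other 3 lay within 2-fold, with a summed FPKM of the list of 48.0 and 29.3. The 2 epidermal and 4 vascular markers that were measured lay within 2-fold, and SUC2, a sucrose carrier of the phloem, was at 51.6 and 101. No marker of root, flower or seed reached an FPKM of 1 in either group. In whole leaves, fewer cells of a type and less RNA per cell cannot be told apart.

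Some aliphatic glucosinolate genes had levels near 0 in a parent. Of 20 measured genes 15 lay within 2-fold, 4 were lower and 1 was higher. AOP3, a dioxygenase that modifies the side chain to a hydroxyl form and was not on the list, was measured at 0.47 in Col-0, 181 in Fcs, 179 in Fsc and 255 in Sei-0. AOP2, whose enzyme can make the alkenyl form instead, had 41.6, 15.7, 17.58 and 0.86 in the same order. MYB29, an activator of the pathway, had 26.2, 6.96, 6.18 and 0.02. MAM3, a chain elongation enzyme and the member that was higher, had 20.7, 78.5, 76.6 and 139. ESP, which steers glucosinolate breakdown to nitriles, had 32.2 in Col-0, 3.65 in Fcs, 320 in Fsc and 0.27 in Sei-0, so that the reciprocal hybrids lay on opposite sides of Col-0. At 1 dpi 19 of the 20 genes were lower in Fcs, with a median log2 ratio of -2.65.

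The largest and smallest ratios were taken from genes with an FPKM of at least 20 in the higher group. Of the 15 largest, AT3G44070, annotated as a glycosyl hydrolase of family 35, had 0.021 in Col-0 and 28.8 in Fcs, beside 30.4 in Fsc and 38.3 in Sei-0. AOP3, AT5G33251, AT4G19239, AT3G29775, SADHU5-1, AT4G19240, AT5G15360 and AT2G29160 showed the same order, nearly silent in Col-0 with Fcs below Sei-0. The other 6 genes were higher in both hybrids than in either parent. They were PDF1.2 and PDF1.2c, AT1G07050, with a CCT motif, at 0.53 in Col-0, 105 in Fcs, 328 in Fsc and 7.27 in Sei-0, AT5G62360, a pectin methylesterase inhibitor-like protein, at 1.24, 162, 267 and 16.1, AT4G33980 at 0.41, 39.3, 157 and 1.99, and AT1G17665 at 0.36, 26.5, 58.6 and 6.80.

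At the other end, AT3G59930, a defensin-like protein, had 462 in Col-0, 14.3 in Fcs, 2.73 in Fsc and 34.4 in Sei-0, a level 32.4 times lower in Fcs than in Col-0. The thionin gene AT1G66100 had 769, 29.6, 26.6 and 0.89, so that Fcs lay between the parents. GRP9, a glycine-rich protein, likewise had Sei-0 at the bottom, at 22.1, 0.74, 0.44 and 0.16. The other 13 of the 15 smallest ratios were lower in Fcs than in both parents. Besides BSMT1 and BIP3 they held CYP94B3, which inactivates JA by hydroxylation, at 71.3 in Col-0 and 3.73 in Fcs, NIT3, a nitrilase, at 43.5 and 2.29, BETA-OHASE 2, a carotene hydroxylase, at 30.4 and 1.58, and GPAT5, an acyltransferase of suberin synthesis, at 21.6 and 1.18. BETA-OHASE 2 and AT2G30830 overlap another listed gene, and reads in the shared stretch could have been counted for either.

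**Figure D3:**
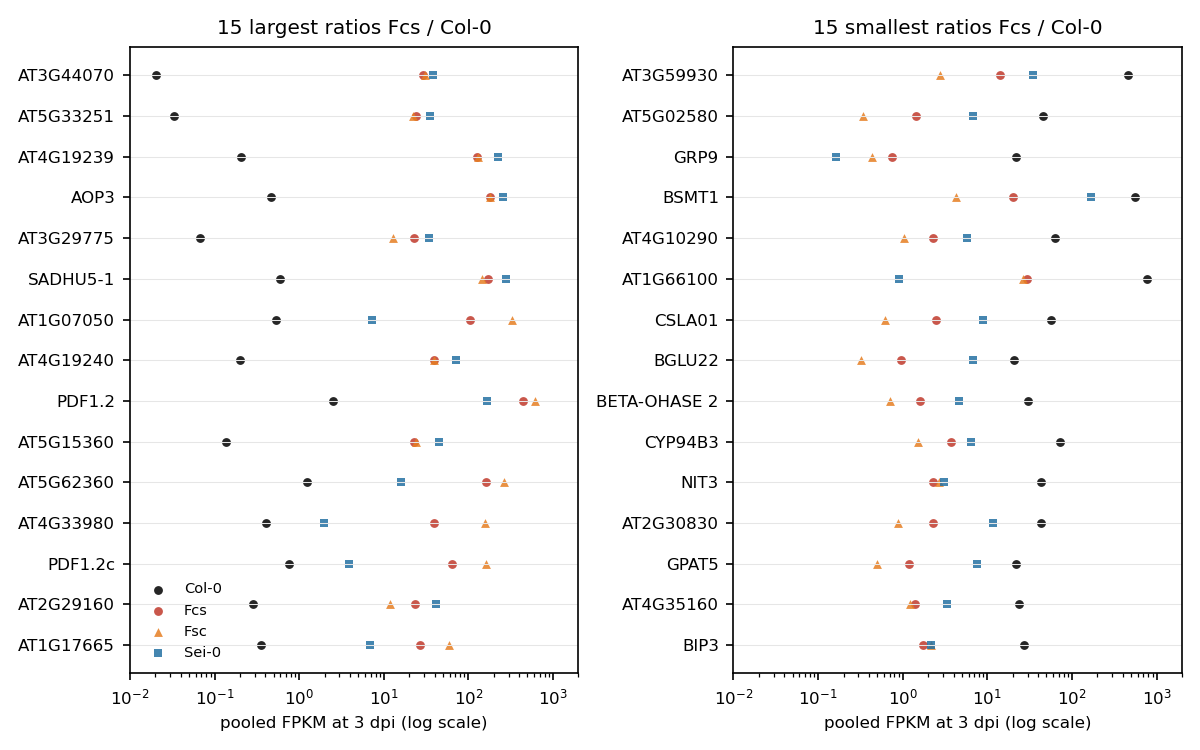
Pooled FPKM at 3 dpi (log scale) of the 15 genes with the largest ratio of Fcs to Col-0 (left) and the 15 with the smallest (right), in Col-0, Fcs, Fsc and Sei-0. On the left 9 genes had Fcs below Sei-0 and 6 had Fcs above it, and on the right AT1G66100 and GRP9 were the only genes with Sei-0 below Fcs.

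By the difference in FPKM, abundant transcripts came to the front. GRP7 had the largest excess in Fcs, at 109 in Col-0 and 5206 in Fcs, followed by AT2G45180, a lipid transfer-like protein, at 1023 and 5762. CAT3, a catalase under clock control, stood at 2118 in Col-0 and 4793 in Fcs. MT1A, a metallothionein that overlaps another listed gene, had the largest deficit, with 81476 in Col-0 and 29807 in Fcs. ECS1 had 11294 and 5291, ARGAH2, an arginase induced by JA, 5429 and 1784, NIT1 3310 and 636, and LOX2, a lipoxygenase of JA synthesis, 3775 and 1809. PCC1, named for its response to pathogen and clock, had 3875 and 1722.

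Of the measured genes 74 were listed at 0 in Col-0 and 50 at 0 in Fcs, and these have no ratio. Their loci were short, with a median of 174 bases against 2430 bases for all measured genes, and the highest of them were small nucleolar RNAs such as AT1G32385, listed at 0 in Col-0 and 242 in Fcs, and AT4G03295, at 800 in Col-0 and 0 in Fcs. Small RNA loci of this size are poorly measured by libraries made from fragmented mRNA. AT5G14560, at 0 in Col-0 and 61.3 in Fcs, was the only locus of at least 300 bases among the 5 highest listed at 0 in Col-0, and it overlaps another listed gene.

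The other days came from other libraries, in tables normalized separately, and were compared through the ratios within each day. At 1 dpi 2487 genes were higher, 13.7% of those measured, and 3043 lower, 16.8%. At 2 dpi 1644 were higher, 9.11%, and 1403 lower, 7.78%. Of the genes higher at 3 dpi 931 were also higher at 2 dpi, 55.0% of the 3 dpi genes and 56.6% of the 2 dpi genes, and 470 were also higher at 1 dpi, 27.7% and 18.9% of each list. Of the genes lower at 3 dpi 910 were also lower at 2 dpi, 45.9% and 64.9%, and 647 also at 1 dpi, 32.6% and 21.3%. On all 3 days 403 genes were higher and 539 lower. Across the 17241 genes measured on all days, the log2 ratios at 3 dpi had a Pearson r of 0.74 with those at 2 dpi and 0.23 with those at 1 dpi, as a description across genes, which are not independent replicates.

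**Figure D4:**
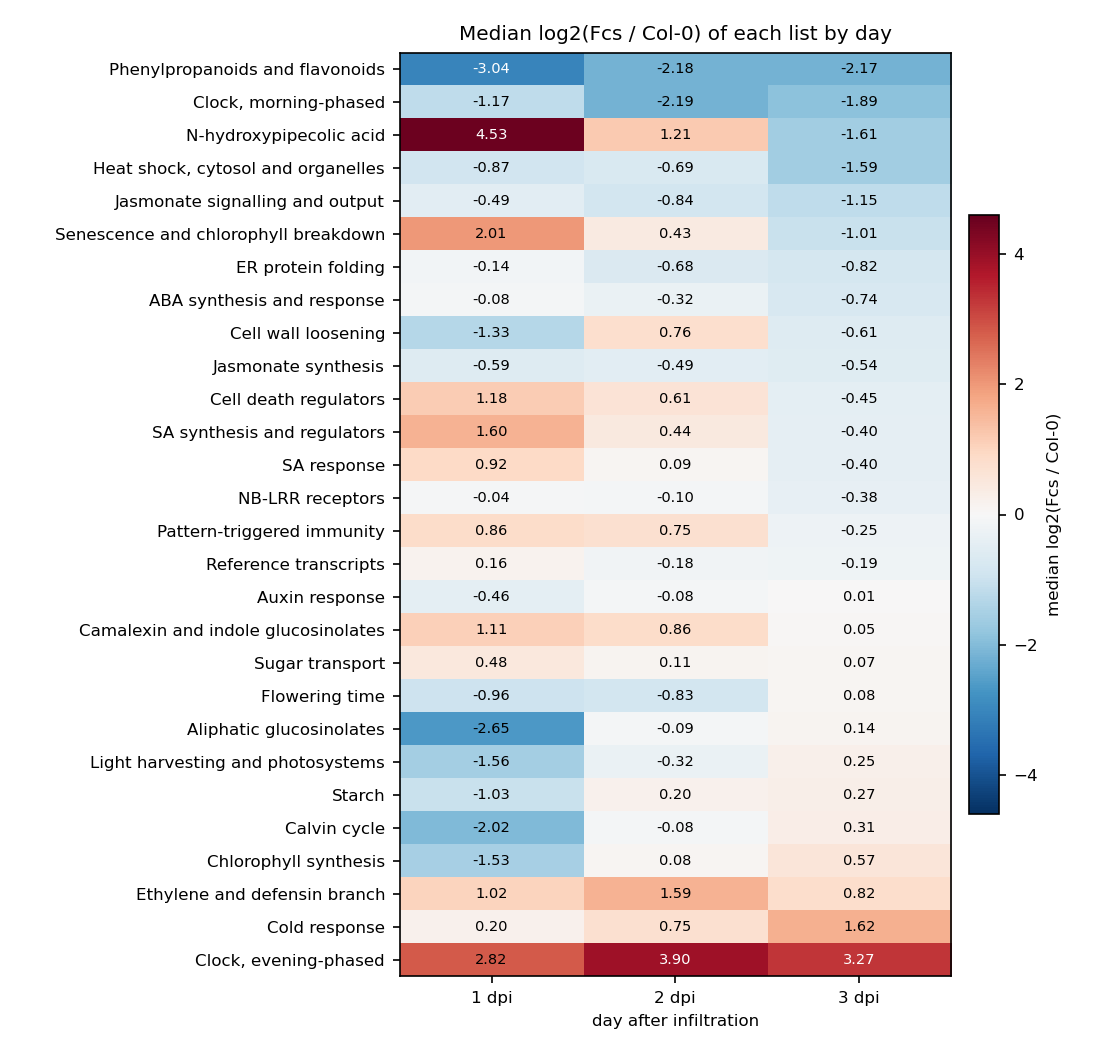
Median log2 ratio of Fcs to Col-0 for each list (rows, ordered by the value at 3 dpi) at 1, 2 and 3 dpi (columns), with red above and blue below 0. The evening-phased clock genes were above 0 and the flavonoid genes below 0 on each day, while N-hydroxypipecolic acid and senescence genes passed from above 0 at 1 dpi to below 0 at 3 dpi.

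Genes that were lower on all 3 days included enzymes of the flavonoid pathway and of nutrition. AMT1;2, an ammonium transporter, had 11.7 in Col-0 and 0.50 in Fcs at 3 dpi, CSLA01, a glucomannan synthase-like enzyme, 56.8 and 2.5, CHIL, a chalcone isomerase-like protein, 14.5 and 0.74, and AT4G10290, a cupin, 62.3 and 2.31. The higher genes on all 3 days were ranked by the smallest of their daily ratios, which favours genes with very low levels in Col-0. Those at the top were nearly silent in Col-0 each day. AT1G63540, a hydroxyproline-rich protein, had 0.011 in Col-0 and 9.30 in Fcs at 3 dpi, beside 22.7 in Sei-0, and AT4G32208, a relative of heat shock protein 70, had 0.065 and 12.6, beside 23.2.

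A further 351 genes were higher in Fcs at 1 dpi and lower at 3 dpi, 17.7% of the genes lower at 3 dpi. Over all genes measured at 1 dpi, 13.7% were higher. The reverse held for 192 genes, 11.3% of the genes higher at 3 dpi, where 16.8% of all genes measured at 1 dpi were lower. ARD3, a dioxygenase of methionine recycling, had 29.5 in Col-0 and 333 in Fcs at 1 dpi and 68.1 and 10.4 at 3 dpi. TPPD, a trehalose phosphate phosphatase, had 0.96 in Col-0 and 14.5 in Fcs at 1 dpi, then 11.6 and 1.32, and BGLU45, a beta-glucosidase, went from 1.80 and 19.8 to 17.7 and 2.60. In the reverse class PDF1.2b had 27.4 in Col-0 and 1.64 in Fcs at 1 dpi and 0.52 and 37.1 at 3 dpi. STOMAGEN, a peptide that promotes stomata, had 14.9 and 3.08 at 1 dpi, then 3.18 and 17.5, and GA3OX1, an enzyme of gibberellin synthesis, 2.72 and 0.39 and then 1.08 and 5.09.

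Transcripts found in 1 parent only were followed into the hybrid. A gene was taken as present in 1 parent when its FPKM was at least 5 in that parent and under 0.1 in the other at both 1 and 2 dpi, so that no value at 3 dpi chose it. Of 69 genes present in Col-0 only, 64 had a ratio at 3 dpi, and the level in Fcs had a median of 0.466 of that in Col-0, with the middle 50% of genes between 0.364 and 0.566 and 63 of the 64 below Col-0. Sei-0 stayed under 0.1 at 3 dpi for 67 of the 69. Of 32 genes present in Sei-0 only, 30 had a ratio, and the level in Fcs had a median of 0.628 of that in Sei-0, with the middle 50% between 0.545 and 0.729. Col-0 stayed under 0.1 at 3 dpi for 25 of the 32. In Fsc the medians were 0.571 of Col-0 and 0.552 of Sei-0. The Col-0 genes included MYB29, given above. AT1G31258, a noncoding RNA, had 178 in Col-0, 93.8 in Fcs, 91.1 in Fsc and 0 in Sei-0, and AT3G13240 had 107, 61.7, 58.2 and 0. On the Sei-0 side AT5G52067 was listed at 0 in Col-0 and had 24.97 in Fcs, 23.2 in Fsc and 45.6 in Sei-0. The rest of the 5 highest there were loci of at most 126 bases and less regular. In the same order AT3G29633 had 83.0, 63.7, 34.9 and 53.5, and AT2G15029 had 22.8, 48.7, 0 and 65.6. AT2G11271 had 4.21, 113, 102 and 293, and AT3G15251 had 0, 17.9, 0 and 56.1.

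Short sequence motifs of 11 kinds were looked for in the 250 bases upstream of the 17464 measured protein-coding genes, on both strands, as a description without a test. The evening element was present in 6.04% of the 1574 genes higher in Fcs, 2.17% of the 1840 lower genes and 2.36% of the genes within 2-fold. The G-box went the other way, with 5.84% of the higher genes, 11.2% of the lower and 7.32% of those within 2-fold, and so did the ABRE-like ACGTGTC of ABA-responsive genes, which overlaps the G-box in part, with 3.05%, 5.76% and 4.22%. Site II, TGGGCC, and the telo-box, AAACCCTA, both common upstream of genes of ribosomes and of growth, were scarce among lower genes, at 8.86% and 1.25% against 18.5% and 3.81% within 2-fold. The W-box TTGACC, bound by WRKY factors, did not separate the classes, at 12.3% in each, and the W-box TTGACT was present in 18.04% of the higher and 21.6% of the lower genes. The I-box GATAAG had 13.9% and 11.96%, the heat shock element GAANNTTC 10.4% and 10.11%, the CCA1-binding site AAAAATCT 7.18% and 6.30%, and the TGA site TGACGTCA 0.318% and 0.707%.

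**Figure D5:**
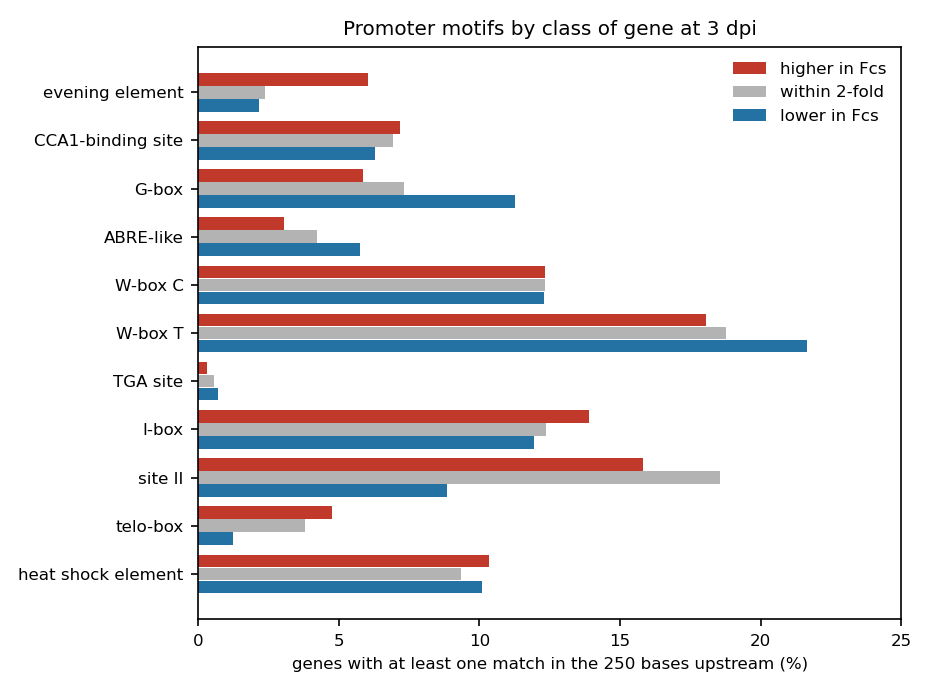
Percentage of genes with at least 1 match in the 250 bases upstream of the gene start (horizontal) for each motif (rows), among genes at least 2-fold higher in Fcs at 3 dpi (red), within 2-fold (grey) and at least 2-fold lower (blue). The evening element was most frequent upstream of higher genes and the G-box upstream of lower genes.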

How the data were processed

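mRNA-seq was made from leaves of Col-0, Sei-0, Fcs and Fsc at 1, 2 and 3 dpi, with 36 libraries in 12 groups. By the study's methods the authors used TopHat, beside which the labels list Bowtie, to align reads to the Col-0 genome TAIR10, and estimated FPKM with Cufflinks, Cuffmerge and Cuffdiff; tool versions are not given in the sources used here. The deposited FPKM value of a group is pooled over its 3 libraries, and the 3 tables, 1 per day, were normalized separately. These tables hold neither depth per library nor replicate spread, and what the study gives on both elsewhere was not used here, so no interval or test was made. The tables also hold the authors' log2 fold changes, test statistics, p-values and q-values, which were not used. Reads of Sei-0 origin met a Col-0 reference, and the effect of this on the ratios was not tested. The 279 organelle genes are listed at 0 in all groups at 3 dpi.

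Ratios of Fcs to Col-0 were computed without a pseudocount for genes with an FPKM of at least 1 in either group, and a gene was counted as higher or lower at 2-fold or more. A gene listed at 0 in 1 group was counted but given no ratio. Described were 29 pathway lists and 7 marker lists, with 500 of 512 members matched by name in the reference annotation, of which 462 were measured and 38 lay under the minimum in both groups, and the median log2 ratio over measured members. Members and lists were chosen with earlier results of these data known. Named genes were the 15 largest and 15 smallest ratios at an FPKM of at least 20 and the 10 largest differences in FPKM each way. Further ones were the 2 members at each end of a list with a few key genes, and the 5 highest listed at 0 in a group. From the genes past 2-fold on all 3 days, the 8 each way with the largest smallest fold were taken. The last were the 8 that changed sides between 1 and 3 dpi each way, and the 5 highest found in 1 parent only. Other genes in the text were chosen after their values were seen, among them AOP2, MAM3 and ESP.

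Names and gene starts came from RefSeq TAIR10.1, which matched 32810 of 33557 identifiers. Start and end of 8985 genes were identical in both annotations. Promoters were the 250 bases upstream of the TAIR10.1 gene start, so that coordinates in the text are those of TAIR10.1. Counting was checked on simulated data with known ratios. Alternatives were other pseudocounts, minimum levels, folds and scalings, and leaving out overlapping genes. Leaving out short loci and using the gene starts of the tables were chosen after seeing the data. Computations ran in Python 3.11.15 with pandas 2.3.3 and NumPy 2.4.6, and plots were drawn with Matplotlib 3.10.9.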

Additional observations from a re-analysis of the deposited data

How the results depend on the processing

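No paired analysis was possible because the tables hold 1 pooled value per group, and for the same reason no replicate could be left out. The 1694 higher genes became 1125 with an FPKM of at least 1 in both groups and 1047 with at least 5 in either, where the 1982 lower genes stayed within 1.5 times, at 1474 and 1403. With no minimum there were 3398 higher and 4027 lower, at 1.5-fold 3247 and 3522, and at 4-fold 530 and 635. Pseudocounts, centring, scaling without the 20 most abundant genes, and leaving out overlapping genes or loci under 300 bases kept both counts within 1.5 times, from 1191 to 1772 and from 1499 to 1919. The 942 genes past 2-fold in the same direction on all days became 616 at an FPKM of at least 5, 1909 at 1.5-fold and 266 at 4-fold. No list median called at 0.5 or more changed sign under these settings, and 249 of 260 recomputed medians moved by less than 0.25. Pseudocount 1 moved the log2 ratio of 51 of 83 named genes by more than that. With the gene starts of the tables the evening element was upstream of 7.50% of the higher and 1.47% of the lower genes, and the G-box upstream of 8.01% and 13.5%, against 2.57% and 9.44% of all promoters.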

Other observations

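Glutathione transferases of the tau class, detoxifying enzymes, were chosen after their values were seen. Of 23 measured members 9 were at least 2-fold lower in Fcs at 3 dpi and 2 were higher, with a median log2 ratio of -0.30. GSTU25 had an FPKM of 3.86 in Col-0 and 0.13 in Fcs, and GSTU24 had 19.1 and 3.94. GSTU26 was higher, at 0.69 and 10.6. Of 53 measured WRKY transcription factors, also chosen after their values were seen, 6 were lower and 5 higher, with a median of -0.02. Over all measured genes 10.9% were lower and 9.34% higher. WRKY57 had the smallest ratio of the WRKY genes, at 27.9 in Col-0 and 7.28 in Fcs.

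The loci under 300 bases numbered 229 of the measured genes, and 134 of them were past 2-fold, against 3676 of all 18138 measured genes.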
